A study of Mus musculus with 20 samples.

Results

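The comparison set 5 Cx30GRko mice against 5 control mice that had all received saline, and asked what the loss of the glucocorticoid receptor in astrocytes does to spinal cord transcripts when no receptor agonist is given. Its members are the 10 arrays titled as transgenic or wild type with saline, out of 20 arrays in the series, and they were chosen by those titles and not by any measured value. All mice were C57BL/6J, 6 to 10 weeks old, and spinal cord was taken 4 h after an intraperitoneal injection. The control saline group is labelled as wild type. The Cx30GRko saline group lacked the receptor where Cre recombinase had acted in cells that express connexin 30. The other 10 arrays hold 5 control and 5 Cx30GRko mice given 4 mg/kg dexamethasone (Dex), which activates the receptor, and they enter here through the estimate of spread and as a second set of animals. The titles write the knockout as Tg, which was read as Cx30GRko. Whether the controls carried floxed receptor alleles or the Cre driver alone, whether recombination was induced by a drug, and the sex of the mice are not stated in the sources used here. The cord was chosen in the study as the tissue where recombination was most efficient, but it also holds neurons, oligodendrocytes, microglia and vessels that keep their receptor. In such bulk tissue a smaller number of cells of one type and less RNA per cell cannot be told apart.

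The glucocorticoid receptor, encoded by Nr3c1, sits in the cytoplasm with heat shock proteins and immunophilins until corticosterone or a synthetic ligand binds it. It then enters the nucleus, where it binds glucocorticoid response elements near genes such as Fkbp5, Tsc22d3, Sgk1 and Per1, and it also dampens transcription driven by NF-kB and AP-1. Astrocytes, the cells that clear glutamate and potassium, store glycogen and form gap junctions through connexins 43 and 30, respond strongly to glucocorticoids, and the blood of an animal injected with saline holds its own corticosterone.

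RNA was measured on Affymetrix whole-transcript arrays, 1 per mouse, and values are deposited log2 signals, 1 probe set per gene for 22180 genes. Every array had a mean of 4.64. The number of arrays, 5 per group, limits the precision. The values had been centred within 2 sets of arrays that the labels do not mention, a first set of replicates 1 to 3 and a second of replicates 4 and 5. Differences are therefore also given within each set, always in that order. A gene's SD among the saline arrays of a group had a median of 0.20 in the first set and 0.32 in the second. Across probe sets the saline arrays had mean correlations of 0.903 to 0.948 with the other arrays, the lowest being Cx30GRko saline 4 (0.903) and control saline 4 (0.905). Cx30GRko Dex 4 and 5 stood apart, their values being more spread over probe sets (SD 1.95 and 1.81) than those of any saline array (1.66 to 1.71). Signals of the Y-linked genes Kdm5d, Eif2s3y and Uty lay between 4.74 and 7.27 on all 20 arrays, and Xist between 2.13 and 3.02.

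No gene differed between the genotypes under saline after adjustment. In the limma fit 0 of 22180 genes had an adjusted p under 0.05, which is 0% of those tested. Before adjustment 985 genes (4.44%) had a p under 0.05, 432 of them higher (1.95%) and 553 lower (2.49%) in Cx30GRko mice. The smallest adjusted p was 0.542, for the major urinary protein gene Mup3, and the next was 0.966. Fitting the 10 saline arrays alone gave 0 genes as well, with 1168 below 0.05 before adjustment and a smallest adjusted p of 0.773.

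The precision of these differences can be read from their intervals. The difference of a typical gene had a standard error of 0.20 log2, and its 95% interval reached 0.42 either side. For 20444 genes the whole interval lay within a 2-fold change in either direction, and for 11256 within a 1.5-fold change. The median difference of all genes was 0.01, the median size of a difference was 0.15, and 99% of genes differed by less than 0.70. The genotype difference had the same sign in both array sets for 11460 genes (51.7%). The arrays of the groups did not overlap for 208 genes (0.938%), 117 higher (0.528%) and 91 lower (0.410%).

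Nr3c1 itself read alike in both groups. Its probe set (17353985) had a mean of 6.21 ± 0.50 (SD, n = 5) in control saline and 6.19 ± 0.21 in Cx30GRko saline arrays, with ranges of 5.40 to 6.58 and 6.01 to 6.49. The difference was -0.02 ± 0.27 log2 (SE; 95% interval -0.57 to 0.54; limma adjusted p = 0.997). It was -0.25 in the first and 0.33 in the second array set, where the single control saline 4 array held the lowest signal of all 10, and the sign turned when any of 6 single saline arrays was left out (0.018 to 0.083). The part of the gene that the probes cover was not used here, so the values check the label little.

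The partners of the receptor gave no difference past the threshold either. Of 19 listed genes of the receptor machinery 16 were measured, 10 of them higher and 6 lower, with a median of 0.07 (0.06 and 0.17 by array set). All 16 intervals lay within a 2-fold change, beside 92.2% of those of all genes. Ep300, a histone acetyltransferase that the receptor recruits, differed by 0.44 (-0.03 to 0.91). Ncoa3, a coactivator of nuclear receptors, differed by -0.25 (-0.57 to 0.07), and its groups only just did not overlap, at 6.74 to 6.90 in control and 6.24 to 6.74 in Cx30GRko arrays. The chaperone Hsp90aa1 differed by 0.20 and the acetyltransferase Crebbp by 0.22. Nr3c2, the mineralocorticoid receptor, which binds the same hormone, differed by 0.21 (-0.25 to 0.66). Hsd11b1, which regenerates active corticosterone inside cells, differed by 0.10. Fkbp4, the immunophilin that helps to carry the receptor to the nucleus, differed by 0.02.

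Gjb6, which encodes connexin 30 and gives the Cre line its name, was also near 0. Its signals were 6.15 to 6.46 in control and 6.16 to 6.77 in Cx30GRko saline arrays, a difference of 0.14 (-0.26 to 0.53). Of 16 listed connexins and pannexins 13 were measured, 5 higher and 8 lower, with a median of -0.06 (-0.07 and 0.07 by array set), which ranged from -0.13 to 0.088 with single saline arrays left out, highest without control saline 5. Gja1, the connexin 43 of astrocytes, differed by 0.29 (-0.10 to 0.69). The connexins of oligodendrocytes gave larger values that came from replicates 4 and 5: Gjb1 (connexin 32) differed by 0.55, which was -0.03 in the first and 1.42 in the second array set, and Gjc3 (connexin 29) by 0.40 (-0.10 and 1.15). The neuronal connexin 36, Gjd2, differed by 0.29.

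Genes that lie beside Nr3c1 and Gjb6 were counted from the RefSeq annotation, since genes close to an engineered locus can be inherited with it. The titles do not say whether the Cre driver lies at Gjb6, so the neighbours of Gjb6 are a description only. Within 5 Mb of Nr3c1 the annotation lists 270 other genes, of which 126 were measured, with a median difference of 0.03. In this neighbourhood 1 gene was higher and 6 were lower before adjustment, against 1.95% and 2.49% of all genes, and none after it. The 3 with the smallest p were Dele1, a mitochondrial stress relay, at -0.51 (means 5.27 ± 0.11 and 4.76 ± 0.07, groups apart), the transcription factor Pou4f3 at -0.77, and the mRNA decapping enzyme Dcp2 at -0.51. Within 5 Mb of Gjb6, 162 of 494 genes were measured, with a median of 0.03, 1 higher and 1 lower before adjustment.

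The direct targets of the receptor were the genes in which a lower basal tone would be read. Of 36 listed targets 35 were measured, 14 higher and 21 lower in Cx30GRko mice, and 0 passed the threshold. The median was -0.05 (-0.06 and 0.04 by array set), against 0.01 for all genes. With single saline arrays left out it ranged from -0.10 to 0.028, above 0 without Cx30GRko saline 2 only. For 33 of the 35 targets (94.3%) the interval lay within a 2-fold change, beside 92.2% of all genes. For 14 (40%) it lay within a 1.5-fold change, beside 50.7% of all genes. Before adjustment 0 targets were higher and 1 was lower, the metallothionein Mt2, beside 1.95% and 2.49% of all genes.

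Sgk1, the serum- and glucocorticoid-regulated kinase, shows the element through which the receptor acts. Windows of 300 bases, from 250 before to 50 after the annotated start, were searched on both strands for the full element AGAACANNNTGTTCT and for its hexamer TGTTCT. One of the 6 Sgk1 windows in RefSeq (GRCm38.p6, plus strand, chr10:21993640-21993939) holds the full element from -189 to -175 relative to the start, with another hexamer from -242 to -237. Both are in capitals, and the hexamers of the element overlap it.
Sgk1: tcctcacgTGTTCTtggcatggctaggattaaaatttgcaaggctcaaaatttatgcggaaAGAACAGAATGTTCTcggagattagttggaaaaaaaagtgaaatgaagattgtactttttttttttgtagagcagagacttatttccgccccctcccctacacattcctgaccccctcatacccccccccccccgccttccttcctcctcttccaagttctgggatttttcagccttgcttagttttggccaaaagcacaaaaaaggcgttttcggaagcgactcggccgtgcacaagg
The exact element stood in 3 of 32851 windows, the element with 1 mismatch among its 12 fixed bases in 54 (0.164%), and the hexamer in 6233 (19.0%). Sgk1 read 5.77, 6.30, 5.89, 6.45 and 6.28 in control saline arrays 1 to 5 and 5.65, 5.79, 6.81, 6.19 and 5.69 in Cx30GRko saline arrays 1 to 5. The groups overlapped, and the difference was -0.11 ± 0.20 (-0.52 to 0.30; limma adjusted p = 0.974), with opposite signs in the array sets (0.10 and -0.43). Of the 35 targets 30 had a window and 4 of them held the hexamer, beside 21.3% of all genes with a window. The 4 were Bcl6 (0.33), Sgk1, Sult1a1 (-0.54) and Tsc22d3 (0.02). Their median difference was -0.05, the same as the -0.05 of the 26 targets with a window and no hexamer. A match is a description of these letters and not a bound site.

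Fkbp5 and Tsc22d3, the most used readouts of the receptor, were near 0. Fkbp5, the immunophilin that holds the receptor in a low-affinity state and closes its feedback loop, read 5.48, 5.71, 5.60, 6.15 and 6.58 in control and 5.75, 5.51, 5.75, 6.13 and 6.14 in Cx30GRko saline arrays. Its difference was -0.05 ± 0.26 (-0.58 to 0.49; limma adjusted p = 0.994), and the groups overlapped. Tsc22d3, the glucocorticoid-induced leucine zipper, read 4.08, 4.41, 4.22, 4.35 and 4.36 in control and 4.09, 4.27, 4.36, 4.30 and 4.49 in Cx30GRko saline arrays. Its difference of 0.02 had one of the narrowest intervals of the named targets (-0.27 to 0.31), so a 1.5-fold change lies outside it.

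Per1, a clock gene that glucocorticoids induce, leaned lower. It read 7.04, 7.52, 7.16, 7.84 and 7.16 in control and 7.25, 6.87, 7.21, 6.20 and 7.29 in Cx30GRko saline arrays, a difference of -0.38 ± 0.20 (-0.80 to 0.04; limma adjusted p = 0.966). The groups overlapped, and the difference was -0.13 in the first and -0.76 in the second array set. Mt2, a metal-binding protein that glucocorticoids induce, read 8.68, 8.69, 8.48, 8.54 and 8.43 in control and 8.41, 8.17, 8.40, 8.25 and 7.63 in Cx30GRko saline arrays. These groups did not overlap, and the difference was -0.39 ± 0.17 (-0.73 to -0.04; limma adjusted p = 0.966). Its paralogue Mt1 differed by -0.17 (-0.46 to 0.12). Cebpb, a transcription factor of the acute phase, was the other target whose groups did not overlap (-0.49; -1.12 to 0.15). Groups were thus apart and lower in 2 of 35 targets, beside 0.410% of all genes, and the interval of Cebpb included 0. Dusp1, the phosphatase that restrains MAP kinases, differed by -0.41, from 0.21 in the first to -1.35 in the second array set.

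**Figure D1:**
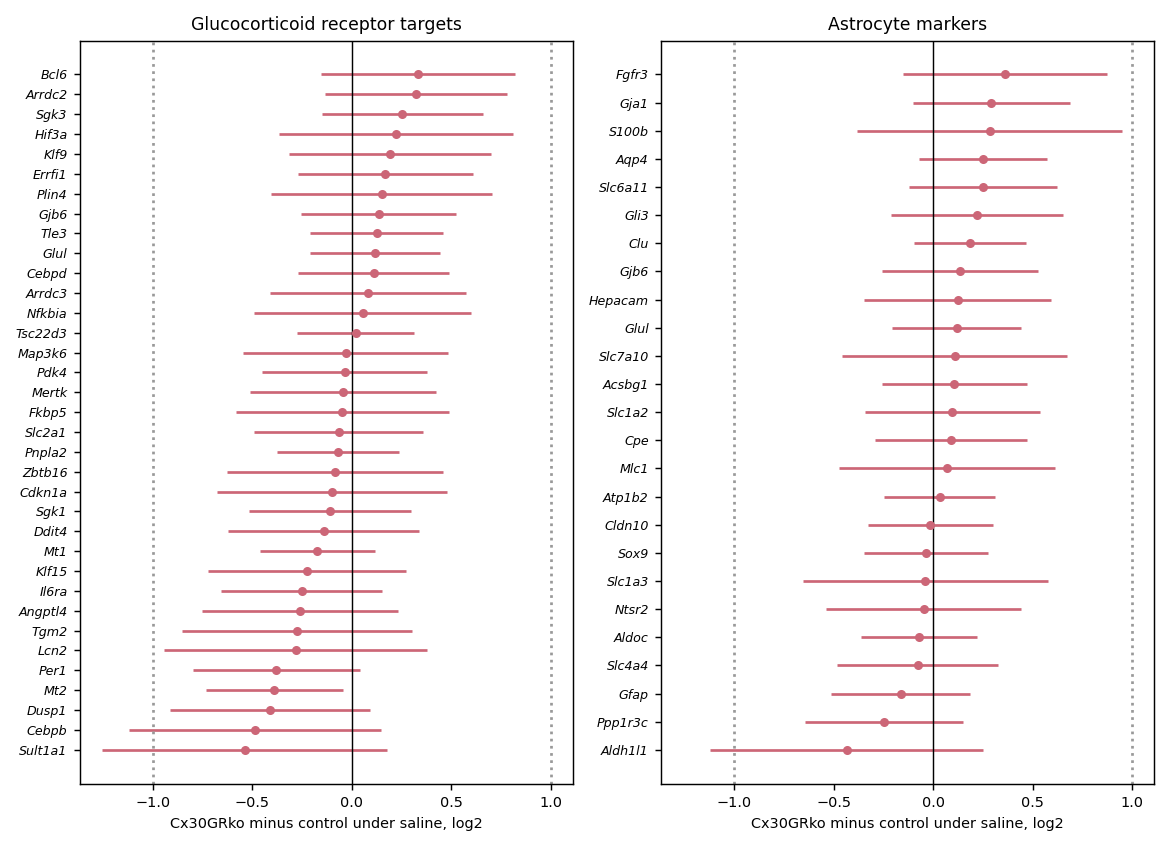
Differences of the 35 measured receptor targets (left) and the 25 astrocyte markers (right), Cx30GRko minus control under saline, on a log2 axis; points are limma estimates, bars 95% intervals, and dotted lines mark a 2-fold change. The targets run from -0.54 (Sult1a1) to 0.33 (Bcl6) and the markers from -0.43 (Aldh1l1) to 0.36 (Fgfr3), and every bar but that of Mt2 crosses 0.

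Mup3 gave the largest difference of all 22180 genes. It encodes a major urinary protein, a lipocalin secreted by the liver that carries pheromones, and belongs to a family of near-identical genes, so its probe set (17426097) may read several of them. Signals were 3.69, 5.35, 5.82, 4.77 and 6.40 in control saline arrays 1 to 5 and 3.52, 3.30, 3.36, 3.10 and 3.14 in Cx30GRko saline arrays 1 to 5. All 5 Cx30GRko arrays were low and close together, whereas 4 of the control arrays were high and control saline 1, at 3.69, lay just above the Cx30GRko arrays. The difference was -1.92 ± 0.36 (-2.67 to -1.18), a fold of 0.263, with a limma adjusted p of 0.542. It was -1.56 in the first and -2.47 in the second array set.

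The Mup3 call turned on 1 array. Without control saline 1 the difference was -2.32 and the limma adjusted p 0.00252, which made Mup3 the only gene called there; over all alternatives the adjusted p of Mup3 ran from 0.00252 to 0.999, and without any other saline array Mup3 was not called. Under Dex the control arrays lacked the high signals: they read 3.94, 3.40, 3.93, 2.68 and 3.03 (mean 3.40 ± 0.55, SD, n = 5), while the Cx30GRko Dex arrays read 3.70, 3.72, 3.57, 4.07 and 4.34 (mean 3.88 ± 0.32). With Dex the genotypes differed by 0.48 (-0.26 to 1.23). The difference between both genotype effects did not pass the threshold (limma adjusted p = 0.923), and it passed without control saline 1 (limma adjusted p = 0.0169).

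Other genes of liver and urinary protein were read beside it. Mup20 read 3.56, 5.04, 5.77, 3.67 and 6.88 in control and 3.55, 3.68, 4.12, 5.64 and 3.10 in Cx30GRko saline arrays, a difference of -0.97. Among control arrays it was lowest in replicate 1 and highest in replicate 5, as Mup3 was, and unlike Mup3 it was high in Cx30GRko saline 4. Mup5 differed by 0.01, Mup21 by -0.15 and Mup6 by 0.48, so only the pair of Mup3 and Mup20 among these 5 probe sets spanned over 2 log2 units among control arrays. Alb, serum albumin, read 4.51, 5.52, 6.42, 4.57 and 5.20 in control and 4.16, 4.20, 4.90, 5.25 and 4.54 in Cx30GRko saline arrays, a difference of -0.64 (-1.07 and 0.01 by array set). Of 12 listed liver and urinary protein genes 9 were measured, 3 higher and 6 lower, with a median of -0.08 (-0.33 and 0.07 by array set). Their part in the Mup3 result was not tested. The Mup3 promoter window (GRCm38.p6, minus strand, chr4:62087268-62087567) holds the receptor hexamer from -204 to -199, shown in capitals, as 19.0% of all windows do, and no full element.
Mup3: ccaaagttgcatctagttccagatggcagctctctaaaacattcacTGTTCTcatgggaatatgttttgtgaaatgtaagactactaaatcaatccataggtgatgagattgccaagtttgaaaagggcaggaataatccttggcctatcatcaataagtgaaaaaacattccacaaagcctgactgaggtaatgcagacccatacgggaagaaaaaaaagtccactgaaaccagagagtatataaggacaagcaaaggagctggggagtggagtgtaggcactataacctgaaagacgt

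The genes that follow Mup3 by smallest p are a description and not a finding, since they were chosen from the same values. Twist1, a basic helix-loop-helix factor of mesenchymal cells, read 3.34, 3.59, 3.51, 3.84 and 3.45 in control and 2.51, 2.71, 2.60, 2.88 and 2.77 in Cx30GRko saline arrays. Imp3, a component of the small subunit processome, read 6.58, 6.73, 6.79, 6.51 and 7.23 and 6.25, 6.27, 5.72, 5.80 and 6.18. Evc2, a ciliary protein of Hedgehog signalling, read 6.10, 6.03, 6.15, 6.49 and 6.25 and 5.84, 5.73, 4.93, 5.27 and 5.35. In each of these 3 genes every Cx30GRko array lay below every control array. The differences were -0.85 (-1.25 to -0.46), -0.72 (-1.08 to -0.37) and -0.78 (-1.16 to -0.39), and each had a limma adjusted p of 0.966.

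Tbx3os2, an RNA transcribed opposite Tbx3, read 3.24, 3.28, 3.44, 3.47 and 3.75 in control and 2.83, 2.89, 2.55, 2.49 and 2.91 in Cx30GRko saline arrays, a difference of -0.70 with groups apart. Cts7, a cathepsin of the placental cluster, differed by -0.75 with groups apart. Ier5, an immediate early gene, differed by -0.92, from -0.35 in the first to -1.77 in the second array set. Its groups overlapped, as did those of Tmem189 (-0.98), a plasmalogen desaturase, Gm38402 (-0.86) and Lgals1 (-0.76), a galectin. Lgals1 had means of 6.00 ± 0.42 and 5.24 ± 0.18. The limma adjusted p was 0.966 for each of these 6 genes.

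Among the genes with higher signals in Cx30GRko mice Npy2r, a receptor of neuropeptide Y, differed most. It read 4.69, 4.39, 3.74, 3.88 and 4.15 in control and 4.91, 5.23, 4.80, 5.52 and 5.96 in Cx30GRko saline arrays, a difference of 1.11 ± 0.25 (0.59 to 1.64; limma adjusted p = 0.966). The groups did not overlap, and the difference was 0.71 in the first and 1.72 in the second array set. Psg20, a pregnancy-specific glycoprotein of a multigene family, read 3.28, 2.86, 2.54, 3.07 and 3.19 and 3.53, 3.63, 4.49, 3.86 and 3.87. Tmem169, a membrane protein, read 5.44, 5.09, 5.33, 5.06 and 4.59 and 5.59, 5.72, 5.71, 5.91 and 5.95. Elac1, a tRNA-processing nuclease, read 6.53, 6.57, 6.17, 6.00 and 5.49 and 6.72, 6.94, 6.79, 7.09 and 7.90. Their groups were apart as well, with differences of 0.89, 0.67 and 0.94.

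Gpr137b, a lysosomal membrane protein, read 4.43, 3.83, 4.91, 4.26 and 4.74 in control and 5.20, 4.97, 5.47, 4.94 and 4.96 in Cx30GRko saline arrays, a difference of 0.67. Pou3f3, a POU factor of neural development, differed by 0.76 (0.41 and 1.30 by array set). Olfr1564, an olfactory receptor, differed by 0.80, and Cep126, a centrosomal protein, by 0.44, with an interval of 0.18 to 0.70. Gm14623 and 1700018F24Rik, both without a known role here, differed by 0.72 and 0.68. Of the 20 genes of both directions the groups did not overlap in 15, beside 0.938% of all genes, and only Gm14623 among the 10 higher genes overlapped. The sign was the same in both array sets for all 20. The choice by smallest p favours both. Some of these genes were dim, with group means in the range of Xist (2.13 to 3.02). In Cx30GRko saline arrays these were Twist1 (2.69) and Tbx3os2 (2.73). In control saline arrays they were Psg20 (2.99), Gm14623 (2.34) and 1700018F24Rik (2.56). Dim transcripts could not be told from absent ones.

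**Figure D2:**
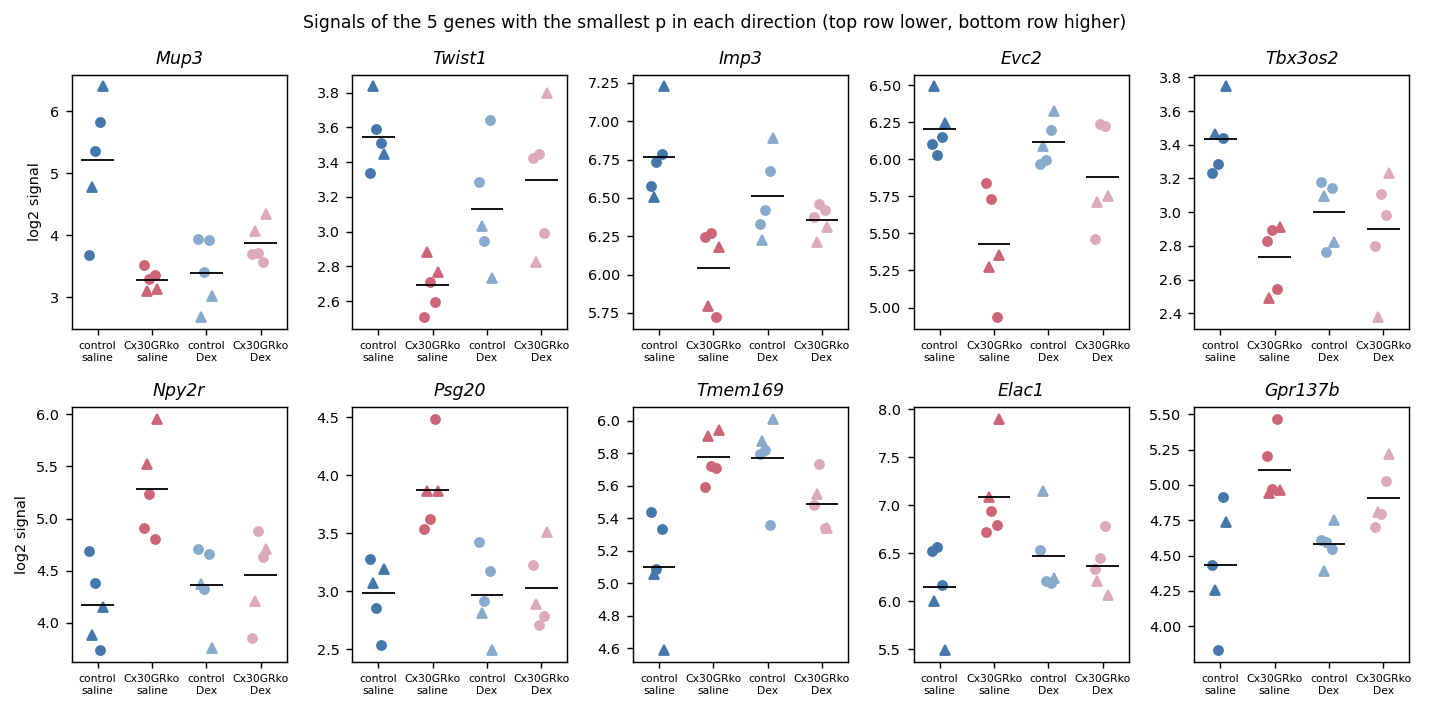
Log2 signals of the 5 genes with the smallest p in each direction in all 20 arrays, by group; circles are replicates 1 to 3, triangles replicates 4 and 5, and lines are group means. In every panel the saline groups do not overlap, with differences from -1.92 (Mup3) to 1.11 (Npy2r), and the Dex groups of the same genes overlap.

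The Dex arrays show how such genes behave in other animals, which also received another treatment. A difference that does not repeat there cannot be told apart from an effect of Dex. The saline comparison shares no array with the Dex comparison, although both estimates of spread come from one fit. Of the 20 genes 8 had the same sign under Dex, 5 of the 10 lower and 3 of the 10 higher, against 55.3% of all 22180 genes. No gene of the 20 had an interval under Dex that excluded 0 on the side of its saline difference. For 3 it excluded 0 on the other side: Tmem189 (-0.98 under saline and 0.73 under Dex), Olfr1564 (0.80 and -0.50) and 1700018F24Rik (0.68 and -0.69). Gpr137b came nearest to a repeat, at 0.33 (-0.05 to 0.71) under Dex.

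The test of the difference between the saline and the Dex genotype effects found 0 genes (0%) at an adjusted p under 0.05, with 1090 (4.91%) below 0.05 before adjustment. Its smallest limma adjusted p was 0.923. Without control saline 1 it called 1 gene, Mup3 (limma adjusted p = 0.0169), and with all arrays no saline difference can be called particular to saline.

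**Figure D3:**
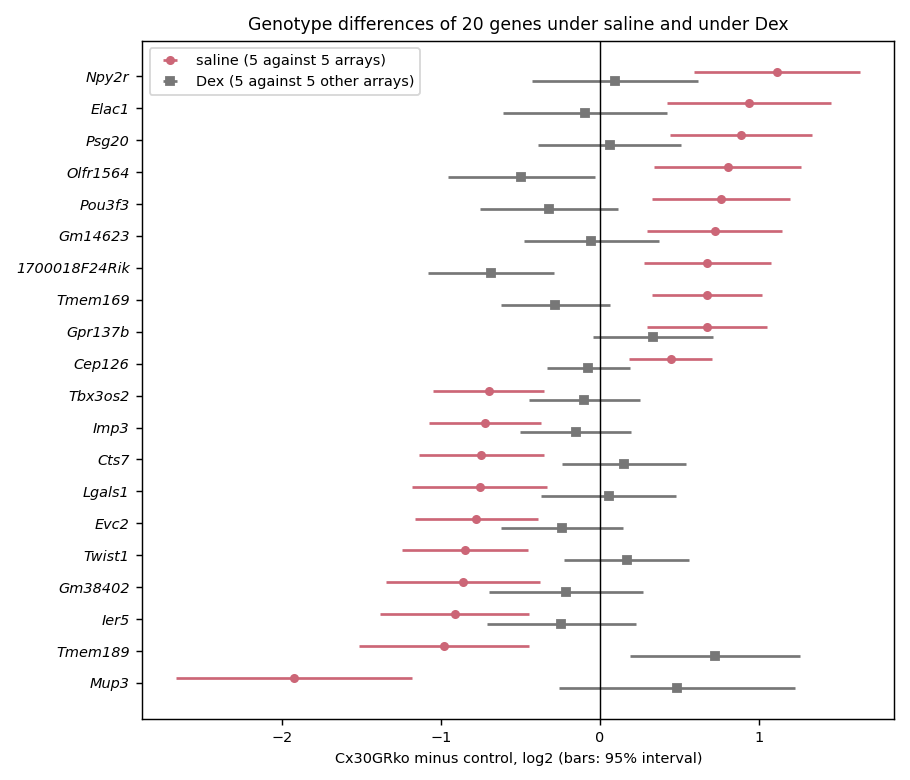
Genotype differences of the 20 genes with the smallest p under saline (red circles) beside those under Dex (grey squares), Cx30GRko minus control, on a log2 axis with 95% intervals from limma. The saline values run from -1.92 to 1.11, and 8 of the 20 Dex values fall on the same side of 0.

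The mean of the saline and Dex genotype effects uses all 20 arrays and also gave 0 genes (0%), with 2021 (9.11%) below 0.05 before adjustment. The smallest limma adjusted p was 0.544. The 5 genes with the smallest p were Nat9, an acetyltransferase (-0.35 under saline and -0.74 under Dex), Dusp18, a phosphatase (-0.36 and -0.86), Dsg1a, a desmoglein of cell junctions (-0.40 and -0.65), Nudcd1 (0.55 and 0.63) and Jade1, a subunit of a histone acetyltransferase complex (0.34 and 0.51). Of these 5, Nudcd1 alone had saline groups that did not overlap, at 4.53 to 4.88 in control and 5.03 to 5.59 in Cx30GRko arrays. Under Dex alone 0 genes (0%) passed, and 2169 (9.78%) fell below 0.05 before adjustment. Cx30GRko Dex 4 and 5, the arrays with the most spread values (SD 1.95 and 1.81), enter this share and that of the mean effect. Neither share is given without them.

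No astrocyte marker differed past the threshold. Gfap, the intermediate filament of astrocytes, read 7.79 to 8.47 in control and 7.63 to 8.09 in Cx30GRko saline arrays (means 8.07 ± 0.25 and 7.90 ± 0.18). Aqp4, the water channel of their endfeet, read 8.80, 8.77, 8.94, 8.30 and 8.79 and 9.04, 8.99, 8.96, 8.94 and 8.93. The groups overlapped for both genes, with differences of -0.16 (-0.51 to 0.19) and 0.25 (-0.07 to 0.57). All 25 listed markers were measured, 16 higher and 9 lower, with a median of 0.10 (0.08 and 0.03 by array set). Before adjustment 0 of the 25 fell below 0.05, beside 4.44% of all genes. For 24 the interval lay within a 2-fold change, beside 92.2% of all genes. Fgfr3, a growth factor receptor of the lineage, was highest (0.36) and the folate enzyme Aldh1l1 lowest (-0.43; -0.02 in the first and -1.05 in the second array set). Slc6a11, the GABA transporter GAT-3, differed by 0.25 and Clu, clusterin, by 0.18.

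Genes for the main tasks of astrocytes gave no call either. Of 19 listed genes of glutamate, potassium and water handling 15 were measured, 11 higher and 4 lower, with a median of 0.10 (0.10 and 0.07 by array set). Aqp4, Aldh1l1, Slc1a2, Slc1a3, Glul, Slc6a11, Slc7a10 and Atp1b2 are also listed as astrocyte markers, so the medians of both lists are not separate. The glutamate transporters Slc1a2 and Slc1a3 differed by 0.10 (-0.34 to 0.54) and -0.04 (-0.65 to 0.58), glutamine synthetase, Glul, by 0.12 (-0.21 to 0.44), and the potassium channel Kcnj10 by -0.13 (-0.55 to 0.28). The glutamine carrier Slc38a3 differed by -0.27. Of 22 measured genes of glucose, glycogen and lactate 12 read higher and 10 lower, with a median of 0.03 (-0.0044 and 0.04 by array set). Gbe1, the glycogen branching enzyme, was the only one below 0.05 before adjustment, beside 4.44% of all genes. It differed by 0.44 (0.07 to 0.81, limma adjusted p = 0.966), and its groups overlapped. Hexokinase 2 (Hk2) differed by -0.28, muscle-type glycogen synthase (Gys1) by 0.24 and lactate dehydrogenase A (Ldha) by 0.23. Of 21 measured genes of sterol and fatty acid synthesis 13 read higher and 8 lower (median 0.06; -0.09 and 0.16 by array set), with Nsdhl, a sterol dehydrogenase, at -0.36 and Hsd17b7 at -0.34.

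Genes of reactive astrocytes had a median below 0 in the first array set and above 0 in the second. Of 38 listed genes 34 were measured, 12 higher and 22 lower, with a median of -0.05 (-0.11 and 0.03 by array set). Before adjustment 0 were higher and 4 were lower, beside 1.95% and 2.49% of all genes. The 4 were Emp1, a membrane protein (-0.64; -1.07 to -0.20), Vim, vimentin (-0.56; -1.02 to -0.09), Fbln5, an elastic fibre protein (-0.58; -1.08 to -0.07), and Nes, nestin (-0.63; -1.23 to -0.04). Their limma adjusted p was 0.966 each and their groups overlapped. Vim read 7.60, 8.16, 8.54, 8.36 and 7.99 in control and 7.85, 7.75, 7.44, 7.79 and 7.03 in Cx30GRko saline arrays. Serpina3n and Lcn2, which astrocytes induce in inflammation, differed by 0.03 and -0.28. Vim, Fbln5, Nes and Emp1 are also expressed by fibroblasts or vessels, whose markers are given with the other cell types.

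Inflammatory genes, many of which the receptor represses, had no common direction. Of 24 measured NF-kB and inflammatory genes 11 read higher and 13 lower, with a median of -0.01 (0.08 and -0.08 by array set). Before adjustment 0 were higher and 2 were lower, beside 1.95% and 2.49% of all genes. They were the cytokine gene Il1b (-0.53; -0.87 to -0.18) and the chemokine gene Ccl3 (-0.70; 0.09 in the first and -1.88 in the second array set). Il1b read 3.35, 3.30, 3.25, 3.34 and 3.82 in control and 3.25, 3.09, 2.50, 2.64 and 2.95 in Cx30GRko saline arrays. The values 2.50, 2.64 and 2.95 lay in the range of Xist (2.13 to 3.02). Rela, a subunit of NF-kB, went the other way at 0.67, all of it from replicates 4 and 5 (0.03 and 1.63), and Tlr4, the endotoxin receptor, differed by -0.59.

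Interferon-stimulated genes gave 6 higher and 15 lower of 21 measured, with a median of -0.09 (-0.15 and -0.0039 by array set). Mx2, an antiviral GTPase, was the only one below 0.05 before adjustment, beside 4.44% of all genes. It was higher, at 0.42 (0.08 to 0.76), whereas Ifit1 differed by -0.34 and Gbp5 by -0.31. Antigen presentation genes gave 5 higher and 8 lower of 13, with a median of -0.08 (-0.22 and 0.20 by array set).

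Immediate early genes, several of which answer both stress hormones and handling, had 7 of 21 higher and 14 lower, with a median of -0.06 (-0.06 and -0.15 by array set). Before adjustment 0 were higher and 3 lower, beside 1.95% and 2.49% of all genes. With single saline arrays left out the median ranged from -0.17 (without Cx30GRko saline 3) to -0.028 (without control saline 4). Jun, a subunit of AP-1, differed by -0.64 (-1.13 to -0.14), but by -0.17 in the first against -1.34 in the second array set. Egr2, which is also a member of the Schwann cell and root list, differed by -0.96 (-1.79 to -0.14) and Ier3 by -0.54 (-1.06 to -0.02). Fos and Egr1, the most used markers of recent activity, differed by 0.02 and 0.04. The clock list had 9 of 18 genes higher and 9 lower, with a median of 0.01 (0.04 and 0.02 by array set). Clock differed by 0.30, Dbp by 0.34 and Nr1d2 by -0.33. Of the 18 genes 0 fell below 0.05 before adjustment, beside 4.44% of all genes. Of 14 measured heat shock genes 8 read higher and 6 lower (median 0.03; 0.03 and 0.06 by array set), and of 10 metallothioneins and zinc transporters 5 read higher and 5 lower (median -0.0016; 0.04 and -0.11 by array set).

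The lists with the lowest medians were markers of tissue around the cord. Meningeal fibroblast markers gave 3 higher and 15 lower of 18, with a median of -0.39 (-0.46 and -0.31 by array set). Of the 15, 12 were lower in both array sets, beside 5479 of the 10799 lower genes among all 22180. Ogn, osteoglycin, a small proteoglycan, read 6.92, 8.03, 8.26, 8.67 and 8.40 in control and 7.53, 7.47, 5.99, 5.47 and 5.29 in Cx30GRko saline arrays, a difference of -1.71 (-3.42 to 0.01; limma adjusted p = 0.966). The groups overlapped. Slc47a1, an organic cation exporter, differed by -0.50 (-0.91 to -0.10), Ptgds, prostaglandin D synthase, by -0.35 (-0.68 to -0.03) and Igf2 by -0.42 (-0.83 to -0.01). These 3 of 18 were below 0.05 before adjustment, where 2.49% of all genes were lower at that level.

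Schwann cell and root markers gave 3 higher and 8 lower of 11, with a median of -0.43 (-0.50 and -0.32 by array set). All 8 were lower in both array sets, beside 5479 of the 10799 lower genes among all 22180. Egr2, the factor that drives peripheral myelination, read 5.91, 6.91, 6.94, 7.22 and 7.30 in control and 6.34, 5.70, 5.49, 6.60 and 5.33 in Cx30GRko saline arrays. Control saline 1 was low, at 5.91, and 4 control arrays were high. Cldn19, a claudin of peripheral myelin, differed by -0.85 (-1.69 to -0.0038), Pmp22 by -0.81 (-1.69 to 0.07) and Pmp2 by -0.99 (-2.26 to 0.28). Mbp and Sox10, which oligodendrocytes express too, differed by 0.07 and 0.04.

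In both lists the arrays of a single group spanned more than the difference between the group means. The mean of the meningeal list, relative to the 10 saline arrays, was -0.23, 0.47, 0.48, 0.30 and 0.10 in control saline arrays 1 to 5 and 0.14, -0.07, -0.67, -0.43 and -0.09 in Cx30GRko saline arrays 1 to 5. That of the Schwann list was -0.16, 0.41, 0.82, 0.09 and 0.03 and 0.23, -0.19, -0.56, -0.39 and -0.28. The groups overlapped in both: control saline 1 lay among the Cx30GRko arrays and Cx30GRko saline 1 among the controls. Under Dex the medians of the same lists were 0.18 and 0.19. Control saline 1 was also the lowest control array for Mup3, Vim and Egr2. The part of the meningeal and Schwann markers in those results was not tested.

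Neutrophil and monocyte markers gave 3 higher and 16 lower of 19, with a median of -0.23 (-0.18 and -0.26 by array set) and a median of -0.14 under Dex. Before adjustment 4 were lower, beside 2.49% of all genes. The 4 were Il1b, S100a9 (-0.48; -0.86 to -0.09), S100a8 (-0.63; -1.17 to -0.10), which with S100a9 forms calprotectin, and the growth factor receptor Csf3r (-0.63; -1.19 to -0.07). The list mean was -0.19, 0.07, 0.19, 0.38 and 0.18 in control and -0.29, -0.11, -0.09, -0.05 and -0.09 in Cx30GRko saline arrays, so the Cx30GRko arrays were all below 0 and control saline 1 lay among them. S100a8 had means of 3.07 ± 0.72 and 2.43 ± 0.10, and S100a9 of 3.86 ± 0.43 and 3.38 ± 0.14. The 2.43 of S100a8 lay in the range of Xist (2.13 to 3.02), and dim transcripts could not be told from absent ones. Il1b counts in this list and among the inflammatory genes.

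Microglia markers gave 6 higher and 13 lower of 19, with a median of -0.13 (-0.16 and -0.17 by array set). With single saline arrays left out it ranged from -0.17 to -0.042, nearest to 0 without Cx30GRko saline 5 and next without control saline 4. Their list mean was the only one of 33 in which the groups did not overlap: 0.02, 0.12, 0.11, 0.07 and 0.02 in control and -0.0023, -0.04, -0.08, 0.01 and -0.23 in Cx30GRko saline arrays. The gap between the groups was narrow. P2ry12, the purinergic receptor of resting microglia, differed by -0.52 (-0.94 to -0.10; limma adjusted p = 0.966), the complement gene C1qa by -0.54, P2ry13 by -0.43 and the adaptor Tyrobp by -0.40. Cx3cr1 differed by -0.13 and Csf1r by -0.13, both at the list median, and Tmem119 was higher at 0.25. Under Dex the median was 0.00.

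Neuron markers were the counterpart, with 19 higher and 4 lower of 23 and a median of 0.11 (0.04 and 0.22 by array set). Syt1, the calcium sensor of synaptic vesicles, read 8.24, 7.84, 7.82, 6.62 and 7.87 in control and 8.07, 8.25, 8.42, 8.37 and 8.48 in Cx30GRko saline arrays, a difference of 0.64 (0.04 to 1.24; limma adjusted p = 0.966). Control saline 4 was low, at 6.62, and held the lowest mean of the neuron list (-0.38). Snap91, a clathrin adaptor of synapses, differed by 0.57 with groups apart, Gad2, which makes GABA, by 0.44 and synaptophysin, Syp, by 0.25. Of 20 measured spinal neuropeptide genes 13 read higher and 7 lower (median 0.06; 0.09 and 0.08 by array set), with Uts2b at -0.38, Vip at 0.37 and Calcb, a calcitonin gene-related peptide of sensory and motor neurons, at -0.46 with groups apart.

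**Figure D4:**
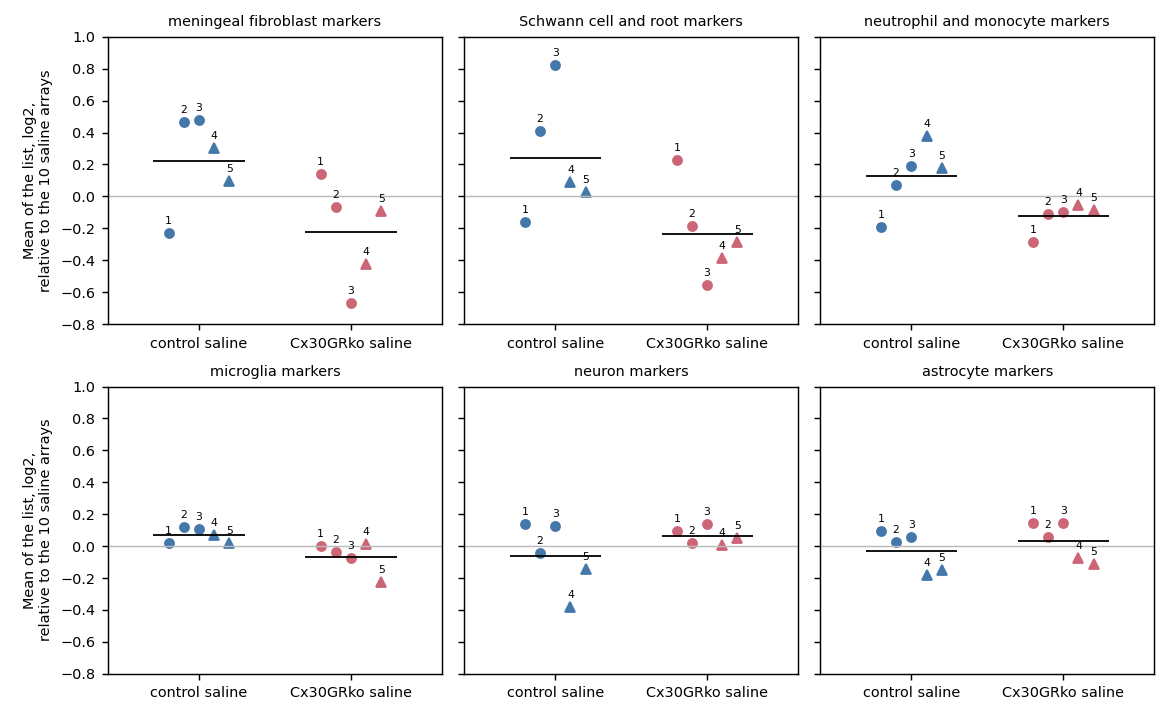
Mean log2 signal of 6 marker lists in each of the 10 saline arrays, relative to the mean of all 10; numbers are replicates, circles replicates 1 to 3, triangles replicates 4 and 5, and lines group means. Meningeal and Schwann lists spread from -0.67 to 0.82 over the arrays, and microglia, neuron and astrocyte lists stay between -0.38 and 0.14.

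Among the other cell types, ependymal markers had 10 of 13 genes higher, with a median of 0.23 (0.25 and 0.04 by array set). Cfap126 (0.60) and the dynein Dnah11 (0.29, groups apart), both of motile cilia, were below 0.05 before adjustment, beside 1.95% of all genes that were higher at that level. Oligodendrocyte markers had a median of 0.09 (-0.13 and 0.33 by array set), and the myelin gene Mag differed by 0.31 (-0.07 and 0.87). Oligodendrocyte precursor markers had a median of 0.08, with Pdgfra at -0.54. Endothelial markers had a median of -0.07 and 0 of 19 below 0.05 before adjustment, beside 4.44% of all genes. Mural markers had a median of -0.06, with vitronectin, Vtn, at -0.95 and Rgs5 at 0.44. Skeletal muscle markers were lower in 13 of 14 genes (median -0.20; -0.20 and -0.17 by array set), with Acta1 at -0.76 (-1.55 to 0.03), and control saline arrays spanned -0.20 to 0.73 in the list mean. Lymphocyte markers were lower in 11 of 14 (median -0.09), with Cd4 at -0.51. Adipose markers had a median of 0.11 (-0.05 and 0.20 by array set) over 10 genes, which was below 0 without control saline 5 and at -0.088 without Cx30GRko saline 5. Of 12 erythrocyte genes 2 were measured, Slc4a1 at -0.31 and Bpgm at 0.12.

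Hox genes, which keep the position of cells along the cord, gave 13 higher and 14 lower of 27, with a median of -0.05 (0.06 and -0.06 by array set), which ranged from -0.052 to 0.058 with single saline arrays left out. Hoxd3 was the only one below 0.05 before adjustment, beside 4.44% of all genes. It differed by 0.46 (0.09 to 0.82), and its groups did not overlap. Hoxd10, a lumbar gene, differed by -0.42 (0.16 and -1.30 by array set). The sex-linked genes had a median of 0.06.

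**Figure D5:**
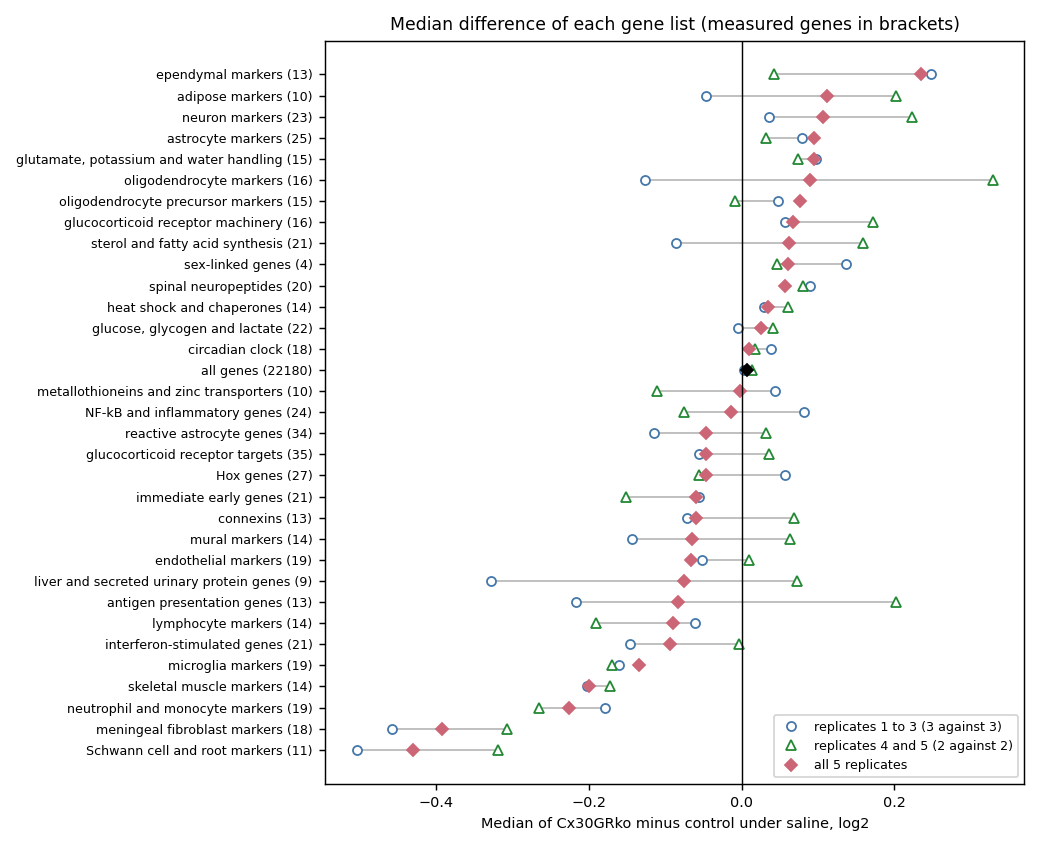
Median difference of each gene list with 4 or more measured genes, Cx30GRko minus control under saline, on a log2 axis; diamonds use all 5 replicates, open circles replicates 1 to 3 and open triangles replicates 4 and 5, and numbers in brackets are measured genes. Schwann and meningeal markers lie lowest in both array sets (-0.50 to -0.31), whereas receptor targets and astrocyte markers lie between -0.06 and 0.10.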

How the data were processed

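Spinal cord RNA of 20 mice, 5 per group, was labelled and run on Affymetrix whole-transcript arrays. The authors deposited log2 values per probe set, made with oligo, per the submitters' processing notes. The version of oligo, the normalization method, build and annotation are not given in the sources used here. Deposited values were used as they stood: equal array means and centring within the array sets (equal to 4.54e-09) show that they had been normalised.

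Of 41345 probe sets 23521 had 1 gene symbol, 1814 several and 16010 none. Where a gene had several probe sets (1082 of 22180 genes), the one brightest on average over all 20 arrays stood for it. Imp3, Emp1, Vim, Syp, Rgs5 and Cldn19, named above, had 2 probe sets each, and values of the dimmer one are not given. limma 3.58.1 in R 4.3.3 fitted a mean per group and the array set as a block to all 20 arrays (15 residual and 5.77 prior degrees of freedom), with two-sided p-values adjusted by Benjamini-Hochberg and a threshold of 0.05. The scripts were tested on simulated data. No column of samples was left unused (0).

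Named genes are the 10 with the smallest p in each direction, 5 for the mean genotype effect, up to 4 with the smallest p of each list, and Nr3c1, Gjb6, Fkbp5, Tsc22d3, Per1, Sgk1, Gfap and Aqp4. Others named in a list, the neighbours of Nr3c1 and the other major urinary protein genes were chosen after their values were seen. The members and the 33 lists (590 genes, 530 measured) were chosen with earlier results of these data known. Promoters are RefSeq windows (GRCm38.p6). The labels name separate mice, and no pooling was stated.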

Additional observations from a re-analysis of the deposited data

Results flagged for a closer look

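Among 184 sets of 5 saline arrays tested (59 named genes and 33 list means in each genotype), 12 had 1 array further from the others than Dixon's 95% critical ratio of 0.71 allows. Chance marks about 1 in 20 such sets.

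Control saline 4 accounts for 5 of them. There Cts7 read 5.00 (the other control saline arrays 4.13 to 4.29), Hk2 read 4.75 (4.02 to 4.14), Aqp4 read 8.30 (8.77 to 8.94) and Syt1 read 6.62 (7.82 to 8.24). The mean of the glutamate, potassium and water handling list was -0.28 in that array (-0.0007 to 0.09 in the others).

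In the other control saline arrays Gjb6 read 6.46 in replicate 2 (6.15 to 6.24 in the others), Il1b read 3.82 in replicate 5 (3.25 to 3.35) and Egr2 read 5.91 in replicate 1 (6.91 to 7.30).

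Among Cx30GRko saline arrays S100a9 read 3.15 in replicate 4 (3.42 to 3.49 in the others). The mean of the neutrophil and monocyte list was -0.29 in replicate 1 (-0.11 to -0.05), that of the adipose list was 0.41 in replicate 5 (-0.10 to 0.00), and that of the liver and secreted urinary protein list was 0.31 in replicate 4 (-0.40 to -0.22).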

How the results depend on the processing

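Results were recomputed under 25 alternatives, of which 2 (all 41345 probe sets, and both saline replicates 4 left out) were chosen after seeing the data. The count of genes called under saline was 0 in every alternative but one: it ranged from 0 to 1 when single saline arrays were left out, as did the count for the difference between the saline and Dex genotype effects, and in both the 1 gene was Mup3 without control saline 1. Genes below 0.05 before adjustment numbered from 659 (both saline replicates 4 left out) to 1548 (Cx30GRko Dex 4 and 5 left out), against 985. Replicate numbers did not pair the saline arrays: deviations of same-numbered arrays correlated at -0.08 to 0.04, and 0 of 10 arrays matched best with their own number. With the replicate block 0 genes were called and 894 fell below 0.05 before adjustment. All 20 genes with the smallest p kept their sign, which their choice from the same arrays favours. Several alternatives, such as no block, the replicate block or the saline arrays alone, leave each difference unchanged and alter only its p-value. Of the 59 named genes 5 reversed in some alternative. Using replicates 1 to 3 only, Fkbp5 (0.076), Sgk1 (0.10) and Ccl3 (0.086) reversed, and the medians of NF-kB genes (0.082), oligodendrocyte markers (-0.13) and Hox genes (0.057) moved. Using replicates 4 and 5 only, Nr3c1 reversed (0.33), and the medians of receptor machinery (0.17), interferon-stimulated (-0.0039), antigen presentation (0.20) and connexin genes (0.069), metallothioneins (-0.11), oligodendrocyte (0.33), ependymal (0.043) and lymphocyte markers (-0.19) moved. With array weights Fkbp5 reversed (0.015). With only genes above the median signal the medians of NF-kB (0.13), immediate early (-0.28), connexin (0.14) and Hox genes (0.061) moved. With single saline arrays left out Mup3 ranged from -2.32 to -1.60, Nr3c1 from -0.24 to 0.083, Fkbp5 from -0.16 to 0.14 and Tsc22d3 from -0.034 to 0.075, and the medians of immediate early genes from -0.17 to -0.028, connexins from -0.13 to 0.088, glucose genes from -0.0014 to 0.097, microglia markers from -0.17 to -0.042, adipose markers from -0.088 to 0.17 and Hox genes from -0.052 to 0.058. The cause was not tested. Signal over background was not given, so dim probe sets could not be told from absent transcripts.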
